A study of Mus musculus with 12 samples.

Results

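The 9 genes described here make, store and release glucose in the liver. They were taken by symbol from the 25239 rows of a table of read counts, and all 9 were found there. Ppp1r3b, Ppp1r3c and Ppp1r3g encode subunits that bring protein phosphatase 1 to glycogen, Gys2 encodes liver glycogen synthase, Pygl liver glycogen phosphorylase, G6pc the catalytic subunit of glucose-6-phosphatase, Pck1 cytosolic phosphoenolpyruvate carboxykinase, Fbp1 fructose-1,6-bisphosphatase and Slc2a2 the glucose transporter GLUT2.

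Messenger RNA was sequenced from liver and brain of male wild type C57BL6/J mice aged 24 months, with 3 control and 3 heat stress libraries per tissue and 12 libraries in all. The heat stress mice were kept at 40 ± 0.5 °C and a relative humidity of 60% ± 5% for 3 hours per day over 15 days, and the control mice, of the same age and genotype, were not heated. The question put to these genes was whether repeated heat exposure of old mice moved the transcripts of hepatic glucose storage and output, and whether a like difference was seen in brain. Each group is 3 mice of 1 sex and 1 age. Food was freely available, while the hour of collection and any withdrawal of food before it are not given in the sources used here.

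The liver keeps blood glucose steady by filling a glycogen store after a meal and by emptying it, and by making glucose from lactate, glycerol and amino acids, between meals. Insulin favours the first through dephosphorylation of glycogen synthase and phosphorylase, for which protein phosphatase 1 has to be tethered to the glycogen particle by a targeting subunit. Glucagon and glucocorticoids favour the second, in part through transcription of Pck1 and G6pc by way of cAMP-responsive and forkhead transcription factors.

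Total counts were 10466198 to 15609040 reads in the 6 liver libraries and 10552686 to 14597197 in the 6 brain libraries, and levels are given as CPM, the reads of a gene scaled to a common library size by TMM within a tissue. Hepatocyte markers summed to between 105338 and 149185 CPM in every liver library, and neuron and glia markers to between 21038 and 23160 CPM in every brain library. In liver, control replicate 1 and heat stress replicate 2 also carried skeletal muscle transcripts. The 18 skeletal muscle markers summed to 637 CPM in control replicate 1 and to 3256 CPM in heat stress replicate 2, against 23.4 to 30.8 CPM in the other 4 liver libraries. The columns of control replicate 2 and of heat stress replicates 1 and 3 of liver carry the suffix 2nd, which the sources used here do not explain.

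Across liver, none of the 9 genes passed the threshold of 0.05 on the Benjamini-Hochberg adjusted p of edgeR's quasi-likelihood test, and neither did any of the 12296 genes tested (0%). For 2 of the 9 genes all 3 heat stress libraries lay on one side of all 3 controls. Ppp1r3b was lower in every heat stress library, as were 5.73% of the genes tested, and Gys2 was higher in every heat stress library, as were 5.38% of the genes tested. The same 2 genes had an unadjusted p under 0.05, a mark that 5.84% of the genes tested in liver reached. Without the 2 libraries that carried muscle transcripts, the count of such genes was again 1 higher and 1 lower, and 10.4% of all genes tested in that fit reached the mark. Leaving out 1 library gave 4 such genes without control replicate 1 (12.9% of all genes tested), without control replicate 3 (5.49%) and without heat stress replicate 1 (6.01%), and 1 without heat stress replicate 3 (3.31%). The count was 5 with the suffix as a covariate (8.51% of all genes tested), and 3 with edgeR on all 12 libraries (8.77%) and with the replicate number as a block (2.61%). It was also 3 with DESeq2 on the 6 and on all 12 libraries, fits in which 627 and 1564 genes had an unadjusted p under 0.05. The 25239 rows of those fits include genes without reads, which have no p, and 17950 genes had a read in the 6 liver libraries. The log2 fold change was above 0 for 5 of the 9 genes and below 0 for 4, and its median was 0.19, beside 0.011 over all genes tested in liver.

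**Figure D1:**
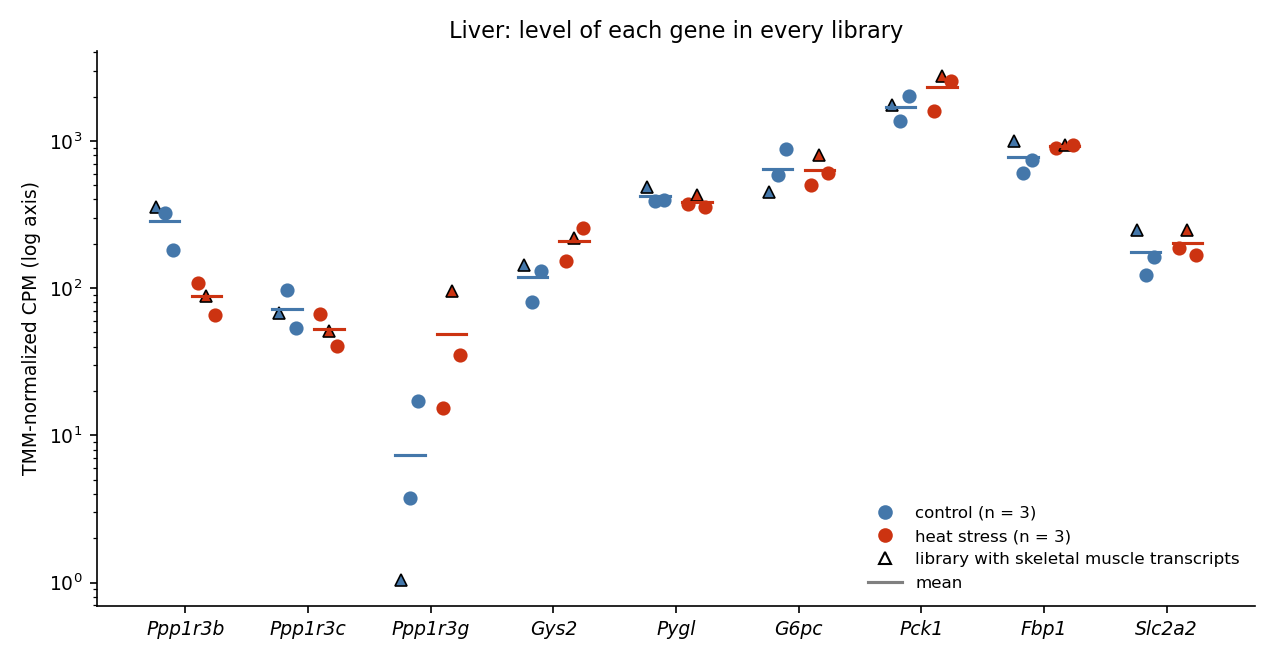
Level of each of the 9 genes in the 6 liver libraries, as TMM-normalized CPM on a log axis. Circles and triangles are single libraries, triangles mark the 2 libraries with skeletal muscle transcripts, and bars are group means (n = 3). Ppp1r3b separates downward and Gys2 upward, Ppp1r3g spreads widely from 1.03 to 95.4 CPM, and the groups overlap for the other genes.

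The promoter windows of both targeting subunits that have an entry in the RefSeq promoter table, and that of Pck1, the gene with the highest level of the 9, are shown first. Each window holds the 250 bases before the RefSeq start site in the mouse build GRCm38.p6, read 5′ to 3′ on the strand of the gene, and 7 of the 9 genes had an entry. Ppp1r3b and Gys2 had none. Capitals mark letters that matched one of the motifs searched on both strands. In Ppp1r3g (chr13:35967656-35967905, plus strand) they are CGTCA, the core of the cAMP response element, on the opposite strand, from position -40. In Pck1 (chr2:173152823-173153072, plus strand) the same core begins at position -90. In Ppp1r3c (chr19:36736605-36736854, minus strand) the capitals mark an E-box, CACGTG, at position -104.
Ppp1r3g: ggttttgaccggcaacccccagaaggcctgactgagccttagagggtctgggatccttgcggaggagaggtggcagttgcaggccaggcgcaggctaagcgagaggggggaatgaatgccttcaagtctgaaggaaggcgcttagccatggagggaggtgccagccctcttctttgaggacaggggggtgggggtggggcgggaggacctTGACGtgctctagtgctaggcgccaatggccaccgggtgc
Pck1: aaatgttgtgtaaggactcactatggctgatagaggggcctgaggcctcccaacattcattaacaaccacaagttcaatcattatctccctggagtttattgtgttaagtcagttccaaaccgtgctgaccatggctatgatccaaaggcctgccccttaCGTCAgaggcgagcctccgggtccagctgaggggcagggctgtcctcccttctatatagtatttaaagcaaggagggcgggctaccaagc
Ppp1r3c: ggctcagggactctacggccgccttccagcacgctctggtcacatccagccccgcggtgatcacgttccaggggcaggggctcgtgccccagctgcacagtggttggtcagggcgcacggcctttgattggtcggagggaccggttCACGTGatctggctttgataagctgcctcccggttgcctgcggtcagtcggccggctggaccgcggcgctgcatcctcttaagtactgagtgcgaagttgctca

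The core CGTCA was in 3 of the 7 windows, the remaining one being that of Pygl at position -44, and in 17.8% of all 32851 windows of the table. The E-box was in 1 of the 7 windows and in 6.02% of all windows. Matches were 0 of 7 for the heat shock element GAANNTTC, which 6.69% of all windows hold, for the FOXO site TGTTTAC (3.17%), for the D-box TTATGTAA (0.819%) and for the glucocorticoid receptor motif AGAACA (16.1%). The E-box shares no letters in these windows with the other matches, and a match or its absence describes only the letters of the window.

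Among the targeting subunits, Ppp1r3b encodes the liver form often called GL, which joins protein phosphatase 1 to glycogen and to glycogen synthase. The gene lies at chr8:35375739-35388139 on the plus strand of GRCm38, with at most 3 exons in a transcript model, and its span overlaps Gm45469 on the opposite strand. Control livers had 354, 321 and 181 CPM in replicates 1, 2 and 3. Heat stress livers had 109, 88.6 and 66.2 CPM. The highest heat stress library was below the lowest control library, and the means were 285 ± 92.0 and 87.96 ± 21.5 CPM (SD, n = 3 each), a 3.25-fold difference. The log2 fold change was -1.70 with a standard error of 0.29, an unadjusted p of 0.000155 and an adjusted p of 0.132 (edgeR's quasi-likelihood test, Benjamini-Hochberg). DESeq2 on the same 6 libraries put the adjusted p at 2.52e-06, and over 17 alternatives it ranged from 2.52e-06 to 0.961, with 4 of them under 0.05. Without control replicate 1 the log2 fold change was -1.52 and the edgeR adjusted p 0.0475. Among the libraries without the suffix (2 control and 1 heat stress library) the log2 ratio of the means was -1.59. Among those with it (1 control and 2 heat stress libraries) the log2 ratio was -1.87. As the groups did not overlap, the shared sign was fixed in advance, and the sets are too small for a test of their own. In these bulk samples fewer cells of a type and less RNA per cell cannot be told apart.

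Ppp1r3g encodes a second hepatic subunit of the same family, whose transcript is known to vary with feeding and fasting. It lies at chr13:35958839-35970388 on the plus strand, and its span overlaps the antisense gene Gm30127. The control livers had 16, 46 and 184 reads, or 1.03, 3.75 and 17.1 CPM. Heat stress livers had 206, 1369 and 443 reads, or 15.3, 95.4 and 34.9 CPM. The heat stress values lay higher in the mean, but replicate 1 of heat stress was below replicate 3 of control, so the groups overlap. The means were 7.31 ± 8.63 and 48.6 ± 41.7 CPM (SD, n = 3 each), with a coefficient of variation of 118% in control and 85.9% in heat stress, the widest among the 9 genes in liver. A log2 fold change of 2.77 with a standard error of 1.21 had an adjusted p of 0.888 (edgeR, Benjamini-Hochberg). The lowest value was in control replicate 1 and the highest in heat stress replicate 2, which are the libraries with muscle transcripts. With both left out, the log2 fold change was 1.26, and leaving out single libraries moved it from 1.82 (without heat stress replicate 2) to 4.37 (without control replicate 3), with no alternative under an adjusted p of 0.05.

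Ppp1r3c encodes the subunit known as protein targeting to glycogen, which many tissues use. It lies at chr19:36731731-36736653 on the minus strand, with 2 exons. Control livers had 67.5, 97.1 and 53.4 CPM, and heat stress livers 66.5, 51.4 and 40.5 CPM. These values overlap, with means of 72.7 ± 22.3 and 52.8 ± 13.1 CPM (SD, n = 3 each). The log2 fold change of -0.46 with a standard error of 0.26 did not pass the edgeR test (adjusted p = 0.922, Benjamini-Hochberg).

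Set against each other per kilobase of exon within a library, the 3 subunits differed in their make-up between the groups. Ppp1r3b held 69.4%, 58.3% and 52.9% of their summed reads per kilobase in the control livers. In the heat stress livers it held 36.8%, 20.8% and 27.7%. No heat stress library reached the lowest control share, and the mean share was 60.2% ± 8.42 in control and 28.4% ± 8.04 in heat stress (SD, n = 3 each). The share of Ppp1r3g was 0.467%, 1.57% and 11.6% in control, against 11.95%, 51.7% and 33.7% with heat stress, where control replicate 3 and heat stress replicate 1 nearly met. The share of Ppp1r3c, 35.3% ± 5.01 and 39.1% ± 11.9, overlapped between the groups. The ratio of Ppp1r3g to Ppp1r3b was 0.00673, 0.0269 and 0.219 in control, against 0.324, 2.48 and 1.218 with heat stress. The ratio of Ppp1r3c to Ppp1r3b was 0.435, 0.689 and 0.673 in control, against 1.39, 1.32 and 1.39 with heat stress. For both ratios every heat stress library was above every control library. Shares and ratios were chosen after the values had been seen and are given without a test.

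**Figure D2:**
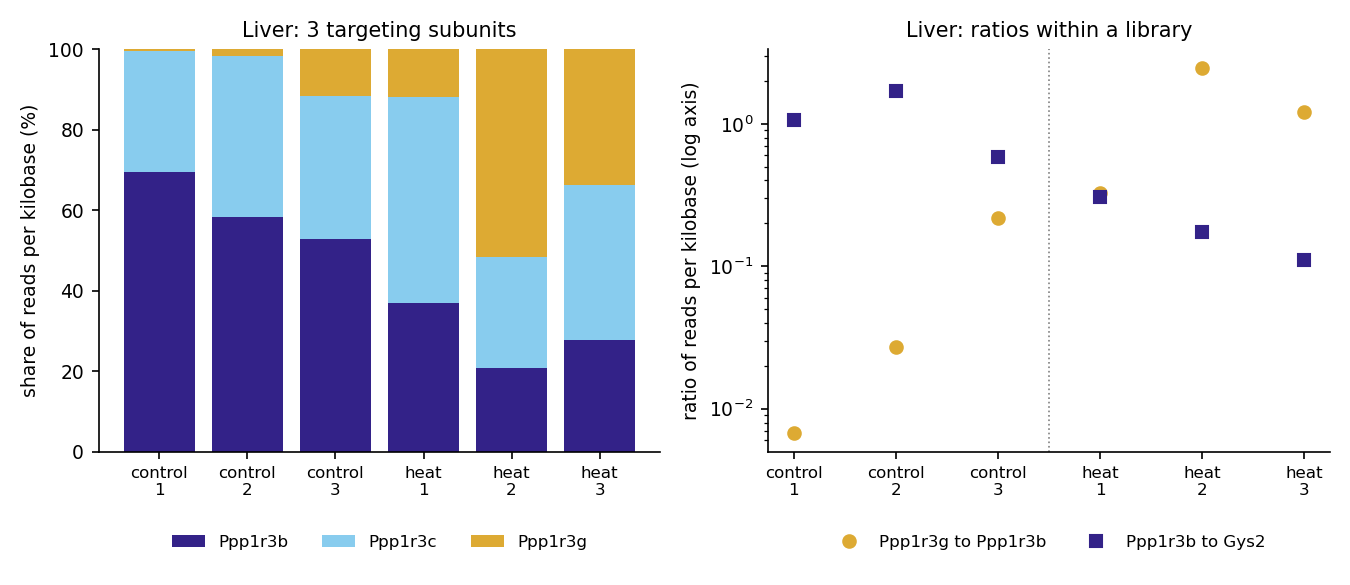
Left, share of each targeting subunit in their summed reads per kilobase in each liver library, as stacked bars that add to 100%. Right, the ratios of Ppp1r3g to Ppp1r3b and of Ppp1r3b to Gys2 in the same libraries on a log axis. The share of Ppp1r3b is 52.9% or more in each control library and 36.8% or less in each heat stress library.

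Gys2 adds glucose units to the growing glycogen chain in liver. The gene lies at chr6:142422613-142473109 on the minus strand, with at most 17 exons in a transcript model. Control livers had 143, 80.8 and 131 CPM in replicates 1, 2 and 3, and heat stress livers had 152, 219 and 255 CPM. Every heat stress value was above every control value, although heat stress replicate 1 and control replicate 1 were close. The means were 118 ± 32.9 and 209 ± 52.0 CPM (SD, n = 3 each). Its log2 fold change was 0.82 with a standard error of 0.27 and an unadjusted p of 0.0116, and the adjusted p was 0.665 (edgeR, Benjamini-Hochberg). The log2 fold change was above 0 in 17 of 17 alternatives, from 0.61 without control replicate 2 to 1.00 with the suffix as a covariate. With groups that did not overlap, leaving out libraries could hardly turn this sign. None of the alternatives brought the adjusted p under 0.05 (range 0.165 to 1.00). The 2 genes that had separated between the groups thus lay in opposite directions. The ratio of Ppp1r3b to Gys2 per kilobase was 1.06, 1.70 and 0.590 in control, against 0.306, 0.173 and 0.111 with heat stress. Its lack of overlap follows from that of the 2 genes and adds nothing to it.

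Pygl encodes the enzyme that takes glucose units off glycogen. It lies at chr12:70190811-70231488 on the minus strand, and F730035M05Rik lies on the opposite strand within its span. Its levels were among the steadiest of the set, with 485, 393 and 395 CPM in control and 374, 426 and 357 CPM in heat stress. The means of 424 ± 52.5 and 386 ± 36.0 CPM (SD, n = 3 each) differed by less than the SD of the controls. The log2 fold change was -0.14 with a standard error of 0.19 (edgeR, Benjamini-Hochberg adjusted p = 0.963). The ratio of Gys2 to Pygl per kilobase was 0.764, 0.534 and 0.862 in control, against 1.06, 1.33 and 1.85 with heat stress, so that synthase reads exceeded phosphorylase reads per kilobase in the 3 heat stress libraries and in none of the controls. That crossing rests on the exonic lengths, 2657 bases for Gys2 and 6895 for Pygl. In CPM, not divided by length, Pygl was above Gys2 in every liver library.

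The enzymes of glucose production overlapped between the groups throughout. Pck1, which turns oxaloacetate into phosphoenolpyruvate and lies at chr2:173153048-173159273 on the plus strand, had 1752, 1359 and 2005 CPM in control. Its heat stress values were 1595, 2762 and 2569.5 CPM, and replicate 1 of heat stress lay within the control range. For Pck1 the log2 fold change was 0.44 with a standard error of 0.26 (edgeR, Benjamini-Hochberg adjusted p = 0.930). Fbp1, which removes a phosphate from fructose-1,6-bisphosphate and lies at chr13:62864753-62888282 on the minus strand, had 992, 604 and 743 CPM in control and 896, 942 and 937 CPM in heat stress. The heat stress values lay close together, with a coefficient of variation of 2.76% against 25.2% in control, and all lay inside the control range. Its log2 fold change was 0.25 with a standard error of 0.22 (edgeR, Benjamini-Hochberg adjusted p = 0.947), and it was 0.092 without control replicate 2 and 0.44 without control replicate 1.

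G6pc, the last step of glucose release, lies at chr11:101367561-101377903 on the plus strand with 5 exons. It had 451, 589 and 885 CPM in control and 503, 802 and 606 CPM in heat stress. All 3 heat stress values lay inside the control range, and the means were 642 ± 222 and 637 ± 152 CPM (SD, n = 3 each). Its log2 fold change was -0.0097 with a standard error of 0.28 (edgeR, Benjamini-Hochberg adjusted p = 0.997), and its sign turned under 5 of 17 alternatives. Slc2a2, which carries glucose across the hepatocyte membrane, lies at chr3:28697903-28731359 on the plus strand and overlaps the antisense gene 1700112D23Rik. It had 247, 122 and 163 CPM in control and 189, 249 and 168 CPM in heat stress, ranges that overlap over most of their length. Its log2 fold change was 0.19 with a standard error of 0.27 (edgeR, Benjamini-Hochberg adjusted p = 0.965).

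**Figure D3:**
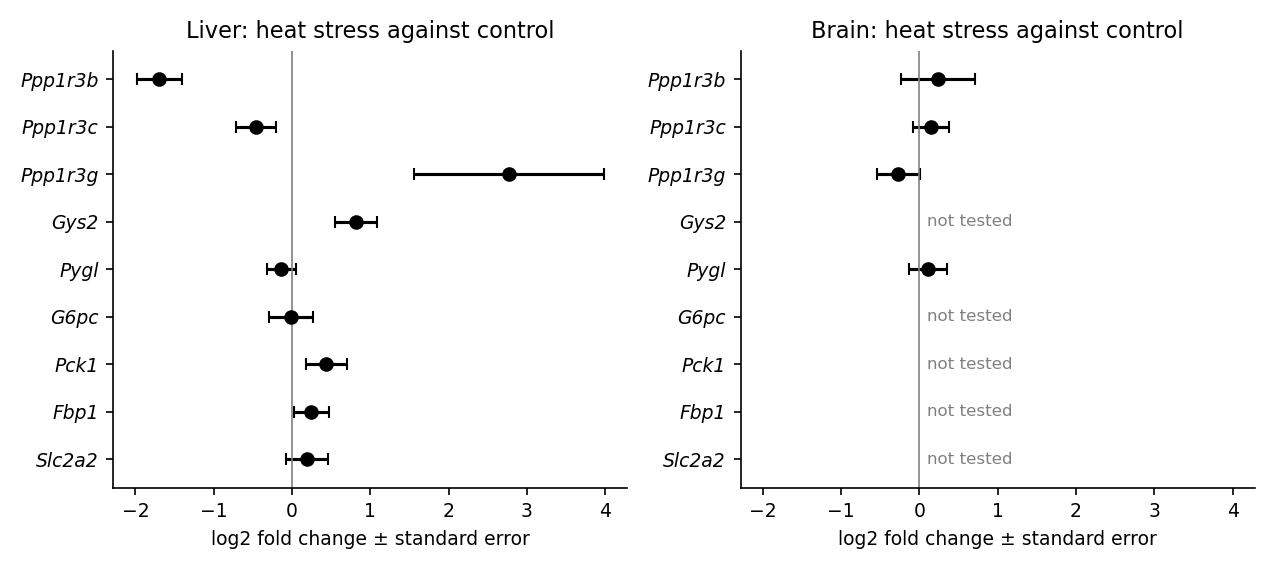
Log2 fold change of heat stress against control for the 9 genes in liver and in brain, as edgeR estimates with their standard errors. Genes without a point had too few reads in brain for a test. In liver Ppp1r3b lies at -1.70 and Ppp1r3g at 2.77 with a wide error, and in brain the 4 tested genes lie between -0.27 and 0.24.

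Per kilobase of exon, the order of mean levels in control liver was Pck1 (497 CPM per kilobase), Fbp1 (458), G6pc (266), Pygl (61.5), Ppp1r3b (45.9), Gys2 (44.5), Slc2a2 (30.8), Ppp1r3c (26.7) and Ppp1r3g (2.71). The control ranges of neighbours in this order overlapped, apart from G6pc with Pygl and Ppp1r3c with Ppp1r3g, so only those 2 steps are larger than the spread between libraries. In heat stress liver Gys2, with 78.5 CPM per kilobase, came next after G6pc, although its range overlapped that of Pygl. The means of Ppp1r3b (14.2), Ppp1r3g (18.0) and Ppp1r3c (19.4) came at the low end, with overlapping ranges of 10.6 to 17.5, 5.69 to 35.4 and 14.8 to 24.4, and their order is within that spread. Without heat stress replicate 2, a library with muscle transcripts, Ppp1r3g had the lowest mean at 9.33, and without heat stress replicate 1 it had 24.2, above Ppp1r3c at 16.8. Pck1, Fbp1 and G6pc again had the 3 highest means, with overlapping ranges for Pck1 and Fbp1.

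Brain served as the reference tissue, and the genes fell into 2 classes there. Gys2, G6pc, Pck1, Fbp1 and Slc2a2 had between 0 and 4 reads in each of the 6 brain libraries and were not tested. G6pc had no read in the 3 control brains, so that its control level was at least 2720-fold higher in liver, with the brain set to 3 reads per library. Ppp1r3c had a liver to brain ratio of 1.15 in control mice, from 0.957 to 1.30 as single control livers were left out. For Ppp1r3g the ratio was 0.810, from 0.265 without liver control replicate 3 to 1.16 without replicate 1, so that for neither gene did the direction hold. Ppp1r3b was 117-fold and Pygl 63.0-fold higher in liver. CPM of the 2 tissues were scaled separately, and these ratios are descriptions of genes chosen as liver genes.

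None of the 4 genes tested in brain passed an adjusted p of 0.05, and neither did any of the 14806 genes tested there (0%) in the edgeR fit. None of the 4 had an unadjusted p under 0.05, which 20.1% of the genes tested in brain had. None had groups that did not overlap either, where 12.9% of the genes tested were higher in every heat stress library and 12% were lower in every heat stress library. Ppp1r3c, the most abundant of the 4 in brain, had 44.4, 79.9 and 65.1 CPM in control and 66.9, 88.3 and 54.3 CPM in heat stress, with a log2 fold change of 0.15 and a standard error of 0.23. Ppp1r3g had 10.0, 10.8 and 6.23 CPM in control and 5.17, 9.14 and 8.12 CPM in heat stress. Its brain values spread over a far narrower range than those in liver, and its log2 fold change was -0.27 with a standard error of 0.27. Pygl (0.11, standard error 0.24) and Ppp1r3b (0.24, standard error 0.48) also overlapped, the latter on 16 to 49 reads per library.

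Whether the difference itself differed between the tissues was tested in a fit of the 4 groups, in which 1 of 15824 genes (0.00632%) passed an adjusted p of 0.05 and none of the 4 genes did. For Ppp1r3b the log2 fold change in liver minus that in brain was -1.97 with a standard error of 0.59 (unadjusted p = 0.00545, edgeR, Benjamini-Hochberg adjusted p = 0.516). For Ppp1r3g it was 3.09 with a standard error of 1.223 (unadjusted p = 0.0304, adjusted p = 0.516 in the same edgeR fit). For Ppp1r3c it was -0.62 with a standard error of 0.38, and for Pygl -0.26 with a standard error of 0.32. Leaving out single libraries moved the value for Ppp1r3g from 2.09 (without liver heat stress replicate 2) to 4.66 (without liver control replicate 3). For Ppp1r3b the left-out libraries gave -2.23 to -1.45.

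Of the other enzymes and regulators of glycogen metabolism, 23 were tested in liver, with a median log2 fold change of 0.15. At an unadjusted p under 0.05 there were 0 in either direction, beside 5.84% of all genes tested. In every heat stress library 2 were higher and 0 lower, beside 5.38% and 5.73% of all genes tested. Those 2 were Gyg, which primes new glycogen particles, at 0.50, and Ppp1ca, a catalytic subunit of protein phosphatase 1, at 0.36, with edgeR adjusted p-values of 0.882 and 0.900. Stbd1, which binds glycogen for its delivery to lysosomes, had a log2 fold change of 0.43 and overlapped. Pygm, the muscle phosphorylase, had 154 reads in control replicate 1 and 855 in heat stress replicate 2, against 5 to 14 in the other liver libraries. Ppp1r3a, the muscle targeting subunit, had 18 and 63 reads in those 2 libraries and 1 to 6 in the others. Of the remaining targeting subunits, Ppp1r3d and Ppp1r3f had at most 10 reads in a liver library, and Ppp1r3e had a log2 fold change of 0.026 with a standard error of 0.47.

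Among the other gluconeogenesis and glycolysis genes, 0 of 32 tested in liver had an unadjusted p under 0.05 with higher and 2 with lower values in heat stress. Over all genes tested in liver the share was 5.84% in either direction. The median log2 fold change of the list was 0.14. In every heat stress library 2 of its genes were higher and 1 lower, beside 5.38% and 5.73% of all genes tested. Pfkfb1, the liver form of the bifunctional enzyme that sets fructose-2,6-bisphosphate, was lower in every heat stress library, with 45.5, 40.1 and 41.5 CPM in control and 25.8, 31.4 and 22.9 CPM in heat stress. Its log2 fold change was -0.67 with a standard error of 0.18 and an edgeR adjusted p of 0.465. Gapdh, of glycolysis, had 22.8, 21.0 and 12.1 CPM in control and 14.8, 11.3 and 10.5 CPM in heat stress. Its log2 fold change was -0.61 and its groups overlapped. Without the 2 libraries with muscle transcripts, 7 of 31 tested genes of this list had an unadjusted p under 0.05 with higher and 2 with lower values, and 3 higher and 1 lower of 22 other glycogen genes, none past an adjusted p of 0.05, where 10.4% of all genes tested had such a p in either direction. With all 6 liver libraries, glucose transporters and hexokinases had 1 higher of 8 tested at an unadjusted p under 0.05, the fructose carrier Slc2a5 at 0.69. The share over all genes tested was 5.84% in either direction. In brain 3 of 13 were lower at an unadjusted p under 0.05 and none was higher, near the 20.1% of all genes tested there. Of these 13 genes 0 were higher and 3 lower in every heat stress brain, beside 12.9% and 12% of all genes tested. Hk1, the main brain hexokinase, was among those lower, at -0.55 with an edgeR adjusted p of 0.184. Of the other glycogen genes 26 were tested in brain, of which 2 had an unadjusted p under 0.05 with higher and 6 with lower values. The share over all genes tested in brain was 20.1% in either direction. In every heat stress brain 3 were higher and 5 lower, beside 12.9% and 12% of all genes tested. Among them, named after their values were seen, were the phosphatase catalytic subunits Ppp1ca (0.39) and Ppp1cb (0.42), higher in every heat stress brain, and the glycogen synthase of tissues other than liver, Gys1 (-0.35), lower in every heat stress brain, with edgeR adjusted p-values of 0.193, 0.183 and 0.212.

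Of 37 hormonal and transcriptional regulators tested in liver, 4 had an unadjusted p under 0.05 with higher and 1 with lower values, beside 5.84% of all genes tested in either direction, and the median log2 fold change was 0.037. Cebpb, a transcription factor known to act on the Pck1 promoter, had 71.6, 63.6 and 48.6 CPM in control and 90.5, 136 and 135 CPM in heat stress. No control value reached the lowest heat stress value, and its log2 fold change was 0.97 with a standard error of 0.22 (edgeR, Benjamini-Hochberg adjusted p = 0.408). Ppargc1b, a transcriptional coactivator, was also higher in every heat stress library, at 0.64. Of the 37 regulators 2 were higher and 1 lower in every heat stress library, near the 5.38% and 5.73% of all genes tested. Klf10 (0.87) and Sik1 (0.80), a kinase that restrains cAMP-driven transcription, overlapped. The glucagon receptor gene Gcgr had means of 223 ± 15.1 and 219 ± 26.6 CPM (SD, n = 3 each), and Foxo1, the insulin-restrained forkhead factor, had a log2 fold change of 0.27 with a standard error of 0.18.

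**Figure D4:**
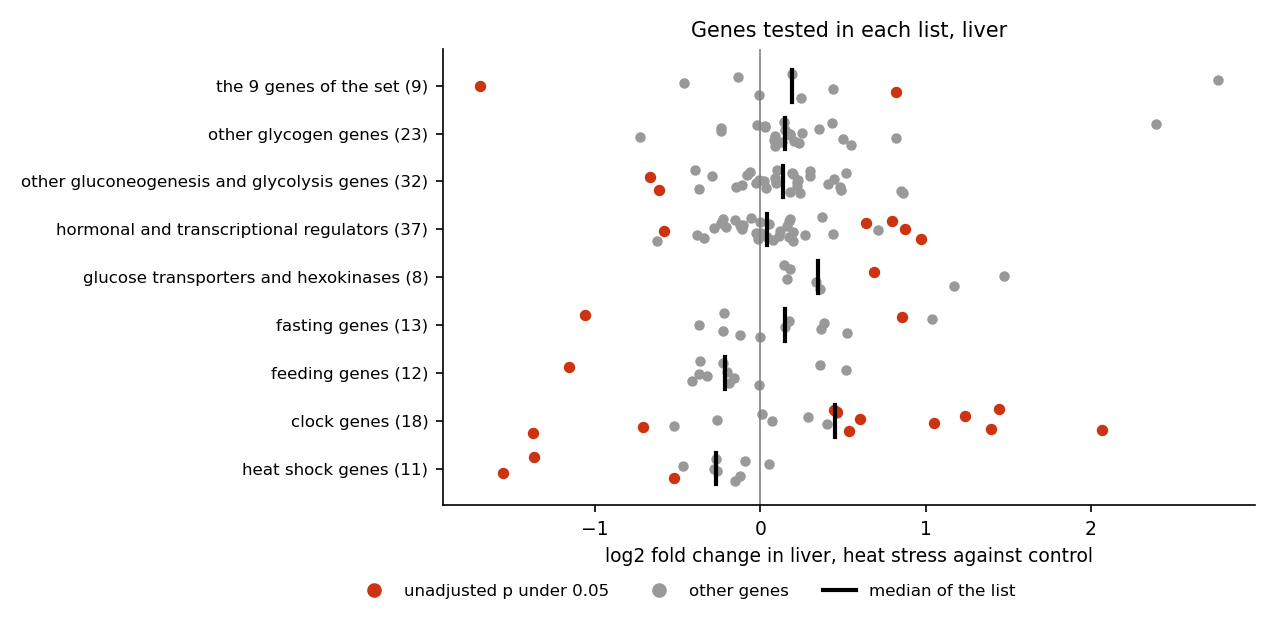
Log2 fold change in liver of every tested gene of the 9 genes and of 8 lists, with the number tested in parentheses. Each point is a gene, red where the unadjusted p was under 0.05, and black bars are medians. No gene passed an adjusted p of 0.05, and the clock genes have the highest count of red points, with 9 higher and 2 lower.

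Lists of feeding state, of the clock and of heat shock are given beside these values, and none of their genes passed an adjusted p of 0.05 in the edgeR fit of the 6 liver libraries. Genes known to rise in fasted liver had a median of 0.15. At an unadjusted p under 0.05, 1 was higher and 1 lower of 13 tested, beside 5.84% of all genes tested in either direction. The higher one was Lpin1 (0.86), a phosphatidate phosphatase and coactivator. The lower one was Pdk4 (-1.06), which shuts off pyruvate oxidation and whose groups overlapped. In every heat stress library 3 fasting genes were higher and 0 lower, beside 5.38% and 5.73% of all genes tested. Genes known to rise in fed liver had a median of -0.21. At an unadjusted p under 0.05, 0 were higher and 1 lower of 12, beside the same 5.84% of all genes tested. The lower one was Pnpla3 (-1.16), whose groups overlapped. Clock genes had 9 higher and 2 lower of 18 tested at that mark, beside 5.84% of all genes tested in either direction. Their median was 0.45. Bhlhe41, a repressor of the clock, had 3.23, 2.53 and 5.22 CPM in control and 13.3, 17.004 and 15.5 CPM in heat stress, and its log2 fold change was 2.07 with a standard error of 0.27 (edgeR, Benjamini-Hochberg adjusted p = 0.0678). Per1 (1.24), Usp2 (1.45) and Dbp (1.05) were also higher in every heat stress library. Of the 18 clock genes 7 were higher and 2 lower in every heat stress library, beside 5.38% and 5.73% of all genes tested. Without the 2 libraries with muscle transcripts the clock count was 10 higher and 3 lower, beside 10.4% of all genes in either direction. In that edgeR fit 4 of 18 clock genes passed an adjusted p of 0.05, as did 2 of 37 regulators, 1 of 12 fasting genes and 2 of 11 heat shock genes, and 0.662% of all genes tested. With all 6 liver libraries, heat shock genes had 0 higher and 3 lower of 11 at an unadjusted p under 0.05. The share over all genes tested was 5.84% in either direction. Hsp90aa1 was at -1.56 and Hsph1 at -1.37. With both muscle-carrying libraries left out, the log2 fold change was -1.53 for Ppp1r3b and 0.92 for Gys2. The part of the clock genes and of the feeding genes in the values of Ppp1r3b, Ppp1r3g and Gys2 was not tested.

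The cell type markers of liver gave these values beside the genes. No hepatocyte marker of 12 tested had an unadjusted p under 0.05, and the 10 stellate and endothelial markers, with sums of 307 to 447 CPM, and the 5 bile duct markers, with sums of 39.6 to 76.5 CPM, had none either. Kupffer and other immune markers had 3 of 13 higher at that mark, beside 5.84% of all genes tested in either direction, and all 13 had a log2 fold change above 0, with a median of 0.50. They had sums of 144 to 287 CPM in control and 217 to 446 CPM in heat stress, highest in heat stress replicate 1. In every heat stress library 1 hepatocyte, 2 stellate and endothelial and 3 Kupffer and other immune markers were higher and 0 lower. Over all genes tested, 5.38% were higher and 5.73% lower in every heat stress library. Neuron and glia markers summed to 161 to 226 CPM, most of it Slc1a2, and adipocyte markers to 11.8 to 43.8 CPM, the latter highest in heat stress replicate 2. Of 5 neuron and glia markers tested, 1 was lower at an unadjusted p under 0.05, 1 was lower in every heat stress library and 0 were higher. Their lowest log2 fold change was -1.40. The pancreas and kidney markers summed to 32.7 to 109 CPM, most of it Cela1, and 1 of the 7 was at 0 in all 6 liver libraries.

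Under other processing the sign of Ppp1r3b, Gys2 and Ppp1r3g in liver held in 17 of 17 alternatives each. These alternatives reuse the same liver libraries. For Ppp1r3b and Gys2, whose groups did not overlap, leaving out libraries could hardly turn the sign. For Ppp1r3b the log2 fold change lay between -1.94 and -1.52. For Ppp1r3g it lay between 1.26 and 4.37, so that its size rests on which libraries enter.

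**Figure D5:**
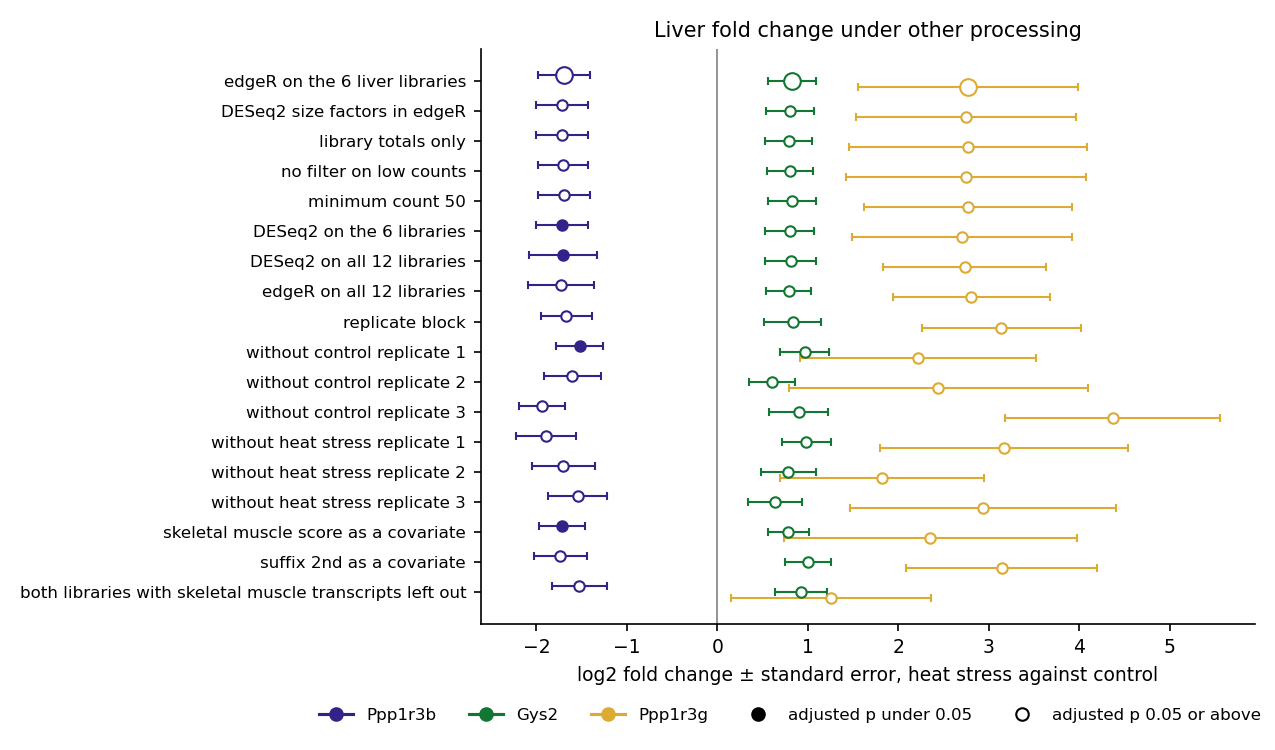
Log2 fold change with its standard error in liver for Ppp1r3b, Gys2 and Ppp1r3g with edgeR on the 6 liver libraries in the first line and 17 alternatives. Filled points have an adjusted p under 0.05. Ppp1r3b stays near -1.7 with 4 filled points, Gys2 stays above 0 with none, and Ppp1r3g has the widest range.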

How the data were processed

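Stranded libraries of poly(A) RNA came from liver and brain, 3 control and 3 heat stress mice for each. The authors deposited raw read counts per gene symbol, without normalization. Per the labels and the study's methods, reads were trimmed, aligned to mm10 with HISAT2 2.2.1 and counted with featureCounts (Subread 2.0.1). The methods also describe a second route with Tophat2 and HTSeq. The strand setting and annotation release are not given in the sources used here, so reads of a gene and of its antisense partner may not be separated. The authors' tables of fold changes and p-values were not used.

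Counts were analysed in R 4.3.3. For each tissue, heat stress libraries were set against controls in edgeR 4.0.16 (robust quasi-likelihood test, TMM, filterByExpr at minimum count 10 and minimum total 15, Benjamini-Hochberg adjustment over all genes tested, threshold 0.05). A fit of the 4 groups tested the difference between tissues. A standard error is the size of the log2 fold change divided by the root of its F statistic. Correlations across libraries were taken on log2 CPM (prior count 2). Scripts were tested on simulated data. Alternatives were DESeq2 1.42.0, other scalings and filters, all 12 libraries, covariates, a replicate block and each library left out. Gene models and exonic lengths are from GENCODE M21 on GRCm38 (mm10), and promoters from RefSeq (GRCm38.p6). The 9 genes and all lists were chosen with earlier results of these data known. Beyond the 9, the up to 4 genes of each pathway list with the smallest liver p, the 3 transporters highest in brain and the 3 highest markers qualified for naming, and Pygm, Ppp1r3a, Ppp1r3d, Ppp1r3e, Ppp1r3f, Ppp1cb, Gys1, Gcgr and Foxo1 were named after their values were seen. An exact permutation test of 3 against 3 cannot go below p = 0.1. Whether a brain and a liver library came from the same mouse is not given. A gene that qualified for naming is not reported here.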

Additional observations from a re-analysis of the deposited data

How the results depend on the processing

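In liver the count of genes past an adjusted p of 0.05, 0 by edgeR (718 at an unadjusted p under 0.05), was 3 with library totals only, 8 without a filter, 14 with edgeR on all 12 libraries, 6 with the suffix as a covariate, 58 with a skeletal muscle score as a covariate and 81 without both libraries that carry muscle transcripts. DESeq2 gave 61 on the 6 libraries and 168 on all 12. Leaving out a library in turn gave 0 to 25, the highest without control replicate 1. Of the 9 genes, Ppp1r3b alone was called, so the count was 1 with DESeq2 on the 6 and on all 12 libraries (log2 fold change -1.72 and -1.71), with the muscle score (-1.72) and without control replicate 1, and 0 to 1 over the left-out libraries. In brain DESeq2 called 618 genes on the 6 libraries and 11 on all 12, with 0 of the 9 genes. The difference between tissues (1 gene) gave 0 with DESeq2 size factors, 48 with DESeq2 and 0 to 4 over the left-out libraries. Same-numbered libraries did not deviate together (correlations of -0.58, -0.51 and -0.089 in liver and -0.29, 0.19 and -0.20 in brain), and with the replicate number as a block 1 gene was called in liver and 0 for the difference between tissues.

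Signs near 0 turned. G6pc in liver was 0.021 with the replicate block, 0.089 with the suffix as a covariate and -0.22 to 0.29 over the left-out libraries (-0.43 without both libraries that carry muscle transcripts), and Slc2a2 was -0.020 to 0.49. Other liver values kept their sign over the left-out libraries, with Ppp1r3c at -0.68 to -0.20, Pygl at -0.21 to -0.041, Pck1 at 0.29 to 0.63 and Fbp1 at 0.092 to 0.44. In brain the left-out libraries gave -0.23 to 0.53 for Ppp1r3b, -0.055 to 0.35 for Ppp1r3c and -0.13 to 0.27 for Pygl, and -0.39 to 0.016 for Pygl between the tissues. The cause of these shifts was not tested. Depth limits brain Ppp1r3b (16 to 49 reads) and the 5 genes at 0 to 4 reads there. Where a left-out library leaves 2 against 3, the spread is estimated across genes.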

Other observations

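Pck1 is a periportal gene of the liver lobule, and zonation markers were read beside it. None of the 12 pericentral and periportal markers tested, Pck1 among them, had an unadjusted p under 0.05 in liver, beside 5.84% of all genes tested. None had groups that did not overlap, where 5.38% of all genes tested were higher and 5.73% lower in every heat stress library. For a list of 12, counts of 0 are near these shares. Cyp2e1, of pericentral hepatocytes, had a log2 fold change of 0.40 with a standard error of 0.22, and Oat, also pericentral, 0.25 with a standard error of 0.25, both with overlapping groups.

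The genes whose log2 CPM ran most like that of Ppp1r3b over the 6 liver libraries, which share tissue and depth, were Pik3r3 (Pearson r = 0.992), a regulatory subunit of phosphoinositide 3-kinase, S1pr1 (0.987), a sphingosine-1-phosphate receptor, and Edem1 (0.987), which acts in the degradation of misfolded glycoproteins. Their log2 fold changes were -0.61, -0.68 and -0.36. For Gys2 they were Mapkapk3 (0.988), Npc1 (0.987), the lysosomal cholesterol transporter, and Rtf1 (0.986), with log2 fold changes of 0.37, 0.62 and 0.18. With 12296 genes to choose from, high correlations over 6 libraries are found by choice, and these values are a description.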
